A study of Homo sapiens with 9 samples.

Results

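The 48 genes described here are factors of DNA replication, of the step from G1 into S phase, and of mitosis. They were taken as a list of gene names, and each was read from the probe set annotated to it alone with the highest mean log2 intensity over all arrays. All 48 of the 48 listed genes had such a probe set, among 19775 genes tested, and they comprised 25 replication genes, 10 G1/S genes and 13 mitosis genes. The RNA came from Huh7, a human hepatocarcinoma cell line, hybridised to 9 Affymetrix arrays with 1 colour. Cells were transfected with siRNA against DEGS1, with siRNA against the subunits of serine palmitoyltransferase (SPTLC123 in the labels), or with a scramble siRNA, each at 20 nM with a lipid reagent, and 3 biological replicates were labelled per group. Serine palmitoyltransferase opens the de novo synthesis of ceramide, and DEGS1, dihydroceramide desaturase, closes it. All 3 groups were the same unmodified line and had the same transfection. The labelled time is 72 h from transfection, but by the protocol a low-serum medium went on at 72 h and cells were collected later. Serum bears on entry into the cell cycle, and the protocol gives 1 medium for all groups.

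Replication starts in G1, when CDC6 and CDT1 load the MCM2 to MCM7 ring onto DNA. In S phase the ring is joined by CDC45 and the 4 GINS subunits into the CMG helicase, with MCM10 and DONSON acting in its assembly and firing, and the fork then carries polymerases, the sliding clamp PCNA and its loader RFC. Cyclin D with CDK4 or CDK6, and cyclin E with CDK2, release the E2F factors that transcribe many of these genes. Cyclin B with CDK1, the Aurora and Polo kinases and the spindle checkpoint then run mitosis. Genes of the first set usually peak in late G1 and S phase and those of the last in G2 and M, so in bulk RNA a change in the number of cells in a phase and a change in RNA per cell cannot be told apart.

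Promoters of 40 of the 48 genes were in the RefSeq promoter table (GRCh38.p14), as windows of 300 bases from 250 before to 50 after the start of the gene. Each window was searched on both strands for E2F-like letters (TTTCCCGC, TTTCGCGC, TTTGCCGC or TTTGGCGC), for the letters of the CHR element, TTTGAA and its variant TTTAAA, and for the box CCAAT. E2F-like letters were in 14 of 21 replication promoters (66.7%), in 1 of 7 G1/S promoters and in 1 of 12 mitosis promoters, against 3.33% of all 27305 promoters. CHR letters were in 9 of 12 mitosis promoters (75%), in 3 of 7 G1/S promoters and in 2 of 21 replication promoters, against 24.3% of all promoters. CCAAT was in 11 of 12 mitosis promoters, 3 of 7 G1/S promoters and 13 of 21 replication promoters, against 35.7% of all promoters. TTTAAA reads the same on both strands and was counted once, and E2F-like letters on opposite strands can overlap. These matches are descriptions of the letters in a window. The 4 windows below are those of the genes with a change of at least 1 on the log2 scale that the table held (CCNE1 and GINS1), and 1 each with the most matches among the replication genes (MCM6) and the mitosis genes (CCNB2, which TOP2A equals), with matches in capitals, on the strand of the gene.
CCNE1, chr19:29811741-29812040, plus strand, with TTTAAA: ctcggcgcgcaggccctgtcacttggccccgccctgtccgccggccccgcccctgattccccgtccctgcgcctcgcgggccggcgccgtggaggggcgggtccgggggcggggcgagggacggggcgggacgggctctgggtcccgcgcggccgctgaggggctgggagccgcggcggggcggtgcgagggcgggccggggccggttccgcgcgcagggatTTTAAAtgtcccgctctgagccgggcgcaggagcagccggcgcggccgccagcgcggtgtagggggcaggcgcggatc
GINS1, chr20:25407423-25407722, plus strand, with GCGCCAAA (E2F-like on the other strand) and 1 match to the CCAAT box on that strand: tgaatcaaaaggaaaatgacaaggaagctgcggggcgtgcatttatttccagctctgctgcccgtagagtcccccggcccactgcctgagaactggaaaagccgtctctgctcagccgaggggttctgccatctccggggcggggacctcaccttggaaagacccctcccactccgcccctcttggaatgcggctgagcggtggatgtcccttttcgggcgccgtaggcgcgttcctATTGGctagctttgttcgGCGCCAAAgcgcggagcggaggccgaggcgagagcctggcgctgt
MCM6, chr2:135876394-135876693, minus strand, with 2 overlapping pairs of E2F-like letters and 2 copies of ATTGG: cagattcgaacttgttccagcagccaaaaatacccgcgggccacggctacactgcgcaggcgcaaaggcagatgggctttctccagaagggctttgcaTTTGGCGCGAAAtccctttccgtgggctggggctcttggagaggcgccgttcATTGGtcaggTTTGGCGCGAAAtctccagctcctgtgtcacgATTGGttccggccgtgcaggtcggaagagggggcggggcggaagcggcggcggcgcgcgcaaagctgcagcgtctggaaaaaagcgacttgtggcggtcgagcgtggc
CCNB2, chr15:59104896-59105195, plus strand, with 2 CHR matches and 4 copies of CCAAT: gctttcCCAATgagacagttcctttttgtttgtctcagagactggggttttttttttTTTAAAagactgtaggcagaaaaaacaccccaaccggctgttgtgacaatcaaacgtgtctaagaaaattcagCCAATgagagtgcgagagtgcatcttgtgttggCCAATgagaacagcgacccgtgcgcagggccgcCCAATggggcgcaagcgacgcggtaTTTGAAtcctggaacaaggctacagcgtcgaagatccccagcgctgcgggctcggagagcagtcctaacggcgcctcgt

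Levels are log2 of the deposited intensity, given as mean ± SD over the 3 arrays of a group, and differences are log2 differences ± SE from a limma fit to all 9 arrays. A gene was called where its Benjamini-Hochberg adjusted p over all 19775 genes was under 0.05. Levels are compared only within a gene, never between genes, since probe sets differ in brightness. Array medians lay between 27.92 and 30 on the linear scale, and all 48 chosen probe sets had a mean above the median of all probe sets (4.86 on the log2 scale). The siRNA targets DEGS1, SPTLC1 and SPTLC2 followed their labels, and the third subunit of serine palmitoyltransferase was not analysed here. DEGS1 was left at 7.55% of its scramble intensity in the DEGS1 group, and SPTLC1 at 20.7% and SPTLC2 at 48.4% in the SPTLC123 group. Of 15 hepatocyte markers 14 were measured, and all 14 exceeded that median on every array, ALB and AFP among them. Of 12 measured markers of other liver cells 4 did so (PECAM1, COL1A1, KRT7 and KRT19). On 3 arrays (DEGS1 replicates 2 and 3 and SPTLC123 replicate 3) actin, a control transcript, read higher at its 3' than at its 5' end by 1.15 to 1.31 on the log2 scale, against 0.4 to 0.56 on the other 6. These 3, none of them scramble, are called the arrays of weak 5' signal below. Without them DEGS1 is left with a single array, so its values and lost calls in that fit rest on no DEGS1 replicates.

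The 48 genes were called about as often as all genes. In DEGS1 cells against scramble 5 of 48 were called (10.4%), against 9.7% of all genes, and these were GINS1, DONSON, CDKN3, CCNE1 and E2F1. In SPTLC123 cells against scramble 6 of 48 were called (12.5%), against 9.94% of all genes, and these were DONSON, CCNE1, CDK2, CDKN1B, MCM3 and MAD2L1. Between DEGS1 and SPTLC123 cells 6 of 48 were called (12.5%), against 8.66% of all genes, and these were DONSON, GINS1, MCM5, CDKN1A, CCNB1 and MAD2L1. Among the 12646 genes brighter than that median, as all members were, the shares called were 14.4%, 14.7% and 12.8% in the same order of comparisons. The members' shares thus lay near the background over all genes and below that over bright genes. By direction, 2 members were higher and 3 lower in DEGS1 against scramble (4.66% and 5.04% of all genes), 4 higher and 2 lower in SPTLC123 against scramble (5.31% and 4.63%), and 2 higher and 4 lower in DEGS1 against SPTLC123 (3.7% and 4.96%). The 3 arrays of a group lay wholly above or below those of the other for 20 members in DEGS1 against scramble, 18 in SPTLC123 against scramble and 15 between the knockdowns. That held for 26.3%, 28.9% and 25.5% of all genes and for 34.3%, 37.2% and 32.6% of bright genes, beside 41.7%, 37.5% and 31.2% of members. In all, 12 members were called in at least 1 comparison and 36 in none. Both comparisons with scramble share its 3 arrays.

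The number called turned on single arrays. In DEGS1 against scramble it was 14 without DEGS1 replicate 1, 9 without SPTLC123 replicate 3, and 3 without DEGS1 replicate 2, DEGS1 replicate 3, scramble replicate 2 or scramble replicate 3. In SPTLC123 against scramble it was 2 without SPTLC123 replicate 1 and 3 without any 1 of the scramble arrays. In DEGS1 against SPTLC123 it was 13 without DEGS1 replicate 1 and 10 without SPTLC123 replicate 3. The same count was 3 without DEGS1 replicate 2 or SPTLC123 replicate 2, and 2 without DEGS1 replicate 3 or SPTLC123 replicate 1. The share of all genes called moved as well. Without DEGS1 replicate 1 it was 18.3% in DEGS1 against scramble and 14.7% in DEGS1 against SPTLC123. Without SPTLC123 replicate 3 it was 10.7% and 9.14%. In the fits with 3 members called in DEGS1 against scramble it was 4.05% to 5.76%. In SPTLC123 against scramble it was 5.96% without SPTLC123 replicate 1 and 6.64% to 7.57% without a scramble array. In the fits with 3 or 2 members called between the knockdowns it was 4.25% to 5.11%.

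The class medians lay near that of all genes in each comparison. In DEGS1 against scramble the median log2 difference was -0.08 over the 25 replication genes, 0.11 over the 10 G1/S genes and -0.125 over the 13 mitosis genes, against -0.01 over all genes. In SPTLC123 against scramble the medians were -0.12, 0.15 and 0.20 for replication, G1/S and mitosis genes, against -0.03 over all genes. Between DEGS1 and SPTLC123 they were 0.08, -0.12 and -0.16, against 0.015 over all genes. Differences stayed within 0.5 on the log2 scale for 43, 45 and 43 of the 48 members in the same order of comparisons, or 89.6%, 93.8% and 89.6%, against 90.1%, 91.9% and 91.7% of all genes. Of the G1/S genes 7 of 10 lay within 0.5 in DEGS1 against scramble and 8 of 10 in each of the others, and 3 of 10 (30%) were called in each comparison with scramble, against 9.7% of all genes in DEGS1 and 9.94% in SPTLC123 cells. Their arrays did not overlap for 7 of 10 in DEGS1 against scramble (70%, against 26.3% of all genes). Of the replication genes 8%, 8% and 12% were called, in the same order of comparisons, against 9.7%, 9.94% and 8.66% of all genes. The few genes outside 0.5, DONSON, GINS1 and CCNE1 first, stand apart from the rest of their class in the plot of differences by class.

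**Figure D1:**
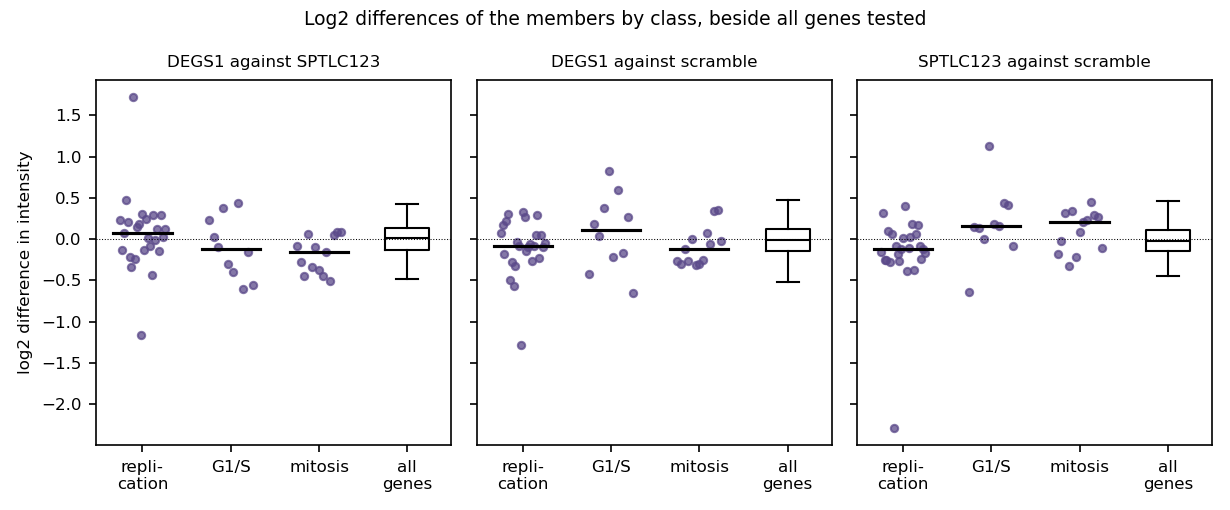
Log2 difference in intensity of each member (points) by class, with the class median (line) beside all 19775 genes (box, whiskers at the 5th and 95th percentile), for DEGS1 against SPTLC123, DEGS1 against scramble and SPTLC123 against scramble. The class medians lie between -0.16 and 0.20, and a few single genes lie far from them.

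Among the replication genes the largest differences were in a pair of factors of the CMG helicase, each in another knockdown. DONSON, a replication factor that helps to build the helicase at origins, had log2 levels of 9.38, 9.05 and 9.23 in DEGS1 cells, 7.44, 7.66 and 7.39 in SPTLC123 cells, and 9.78, 9.83 and 9.77 in scramble cells. Each SPTLC123 array lay below every other array, and each DEGS1 array below every scramble array. DONSON fell by 2.30 ± 0.11 in SPTLC123 cells against scramble, with 20.4% of the intensity left (limma, adjusted p = 9.0e-07). In DEGS1 cells it differed from scramble by -0.57 ± 0.11, with 67.4% left (limma, adjusted p = 0.0085), and it was higher in DEGS1 than in SPTLC123 cells by 1.73 ± 0.11 (limma, adjusted p = 9.57e-06). The loss in SPTLC123 cells was called under all 21 alternative settings. The lower level in DEGS1 cells was called in 20 of them, and without the 3 arrays of weak 5' signal it was -0.41 with an adjusted p of 0.232, where DEGS1 has a single array. DONSON had no other probe set to compare.

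GINS1, a subunit of the GINS complex within the helicase, had log2 levels of 10.06, 9.91 and 9.95 in DEGS1 cells, 11.2, 11.1 and 11.12 in SPTLC123 cells, and 11.39, 11.07 and 11.3 in scramble cells. All 3 DEGS1 arrays lay below the other 6, while SPTLC123 and scramble overlapped. GINS1 fell by 1.28 ± 0.10 in DEGS1 cells against scramble, with 41.1% of the intensity left (limma, adjusted p = 5.68e-05). It was lower than in SPTLC123 cells as well (log2 difference -1.17 ± 0.10, adjusted p = 7.14e-05), and both calls held under all 21 alternative settings. In SPTLC123 cells GINS1 differed from scramble by -0.12 (95% interval -0.34 to 0.11, adjusted p = 0.564). It too was read from a single probe set. Of the other 10 CMG subunits limma called 0 in DEGS1 against scramble, against 9.7% of all genes. At an unadjusted p under 0.05 there were 4 of these 10, against 4877 of all 19775 genes. With array weights limma called MCM6, MCM7 and GINS2 among them, where 21.6% of all genes were called. The other 3 GINS subunits differed from scramble in DEGS1 cells by 0.33 (GINS2), 0.26 (GINS3) and -0.14 (GINS4).

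Of the 6 ring subunits MCM2 to MCM7 limma called 0 in DEGS1 against scramble, 1 in SPTLC123 against scramble and 1 between the knockdowns. Of all genes 9.7%, 9.94% and 8.66% were called. The arrays did not overlap for 4, 3 and 3 of the 6, against 26.3%, 28.9% and 25.5% of all genes. MCM3 had levels of 10.97, 10.89 and 10.97 in DEGS1 cells, 11.14, 11.1 and 10.99 in SPTLC123 cells, and 10.75, 10.77 and 10.77 in scramble cells. It was higher in SPTLC123 cells than in scramble cells by 0.31 ± 0.08 (limma, adjusted p = 0.0367), and SPTLC123 replicate 3 lay close to the DEGS1 arrays. That call ended when any 1 of 7 arrays was left out (DEGS1 replicates 2 and 3, SPTLC123 replicates 1 and 2, and each scramble array), with log2 differences of 0.28 to 0.32 and adjusted p of 0.0528 to 0.129. MCM5 had levels of 9.94, 10.08 and 10.17 in DEGS1 cells, 9.54, 9.57 and 9.66 in SPTLC123 cells, and 9.87, 9.74 and 9.93 in scramble cells. It was higher in DEGS1 than in SPTLC123 cells by 0.47 ± 0.10 (limma, adjusted p = 0.0114), with no overlap between these groups, and neither differed from scramble at the threshold (0.22 in DEGS1 and -0.26 in SPTLC123). Without DEGS1 replicate 3 or SPTLC123 replicate 1 the MCM5 difference was 0.42 or 0.45, with adjusted p of 0.0573 and 0.0548.

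The remaining ring subunits, MCM2, MCM4, MCM6 and MCM7, passed in no comparison. MCM7 and MCM6 came nearest, and in DEGS1 against scramble they were called in 3 and 5 of the 21 alternative settings. MCM7 had 11.57, 11.06 and 11.17 in DEGS1 cells and 11.78, 11.66 and 11.83 in scramble cells, a log2 difference of -0.49 with an adjusted p of 0.0741. Its DEGS1 replicates 2 and 3 were the low arrays, and both have weak 5' signal. MCM6 had 11.51, 11.36 and 11.5 in DEGS1 cells and 11.23, 11.08 and 11.14 in scramble cells, a log2 difference of 0.30 with an adjusted p of 0.0549. Over the 11 CMG subunits 1 was called in DEGS1 against scramble (GINS1), 1 in SPTLC123 against scramble (MCM3), and 2 between the knockdowns (MCM5 and GINS1). Those shares were 9.09%, 9.09% and 18.2%, against 9.7%, 9.94% and 8.66% of all genes.

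The loading factors and MCM10 passed in no comparison either. CDC6, the ATPase that loads the ring, differed by -0.33 in DEGS1 cells (adjusted p = 0.0811) and by -0.09 in SPTLC123 cells against scramble. CDT1, its partner in loading, differed by -0.08 and -0.26, MCM10 by -0.28 and 0.06, and CDC45 by -0.03 and -0.18 in DEGS1 and SPTLC123 cells against scramble. Of the fork genes none passed in its chosen probe set. PCNA, the sliding clamp, differed by -0.10 and -0.11, and the primase-bound polymerase POLA1 by 0.29 and 0.17 (95% intervals 0.07 to 0.51 and -0.06 to 0.39, adjusted p = 0.103 and 0.382). POLE2, a subunit of polymerase epsilon, differed by -0.23 and -0.09.

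The clamp loader subunits RFC2, RFC3, RFC4 and RFC5 gave log2 differences from scramble between -0.26 and 0.05 in DEGS1 cells and between -0.37 and 0.18 in SPTLC123 cells. Another RFC5 probe set read -1.08 in SPTLC123 cells against scramble and 1.23 in DEGS1 against SPTLC123 cells, and was called in both. RFC3 was nearest to a call, at -0.44 in DEGS1 against SPTLC123 cells (adjusted p = 0.056). Enzymes of nucleotide supply were not called. RRM1 and RRM2, the ribonucleotide reductase subunits, differed from scramble by 0.05 and -0.10 in DEGS1 cells and by -0.24 and -0.12 in SPTLC123 cells. TYMS, thymidylate synthase, differed by -0.04 in DEGS1 and -0.17 in SPTLC123 cells. Of the 7 fork genes and 3 nucleotide genes limma called 0 in each comparison. At an unadjusted p under 0.05 these were 1 fork gene in each comparison and 1 nucleotide gene between the knockdowns. Of all 19775 genes 4877 in DEGS1 and 4524 in SPTLC123 against scramble, and 4480 between the knockdowns, were under it. With array weights RFC3 was called in DEGS1 against scramble and between the knockdowns, where 21.6% and 20.2% of all genes were called. With the actin covariate RFC4 and RRM1 were called between the knockdowns, where 10.3% of all genes were called. Over the 21 alternative settings RFC3 was called in 2 in DEGS1 against scramble and in 6 between the knockdowns. RRM1 was called between the knockdowns in 2 of them and RFC4 in 1.

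**Figure D2:**
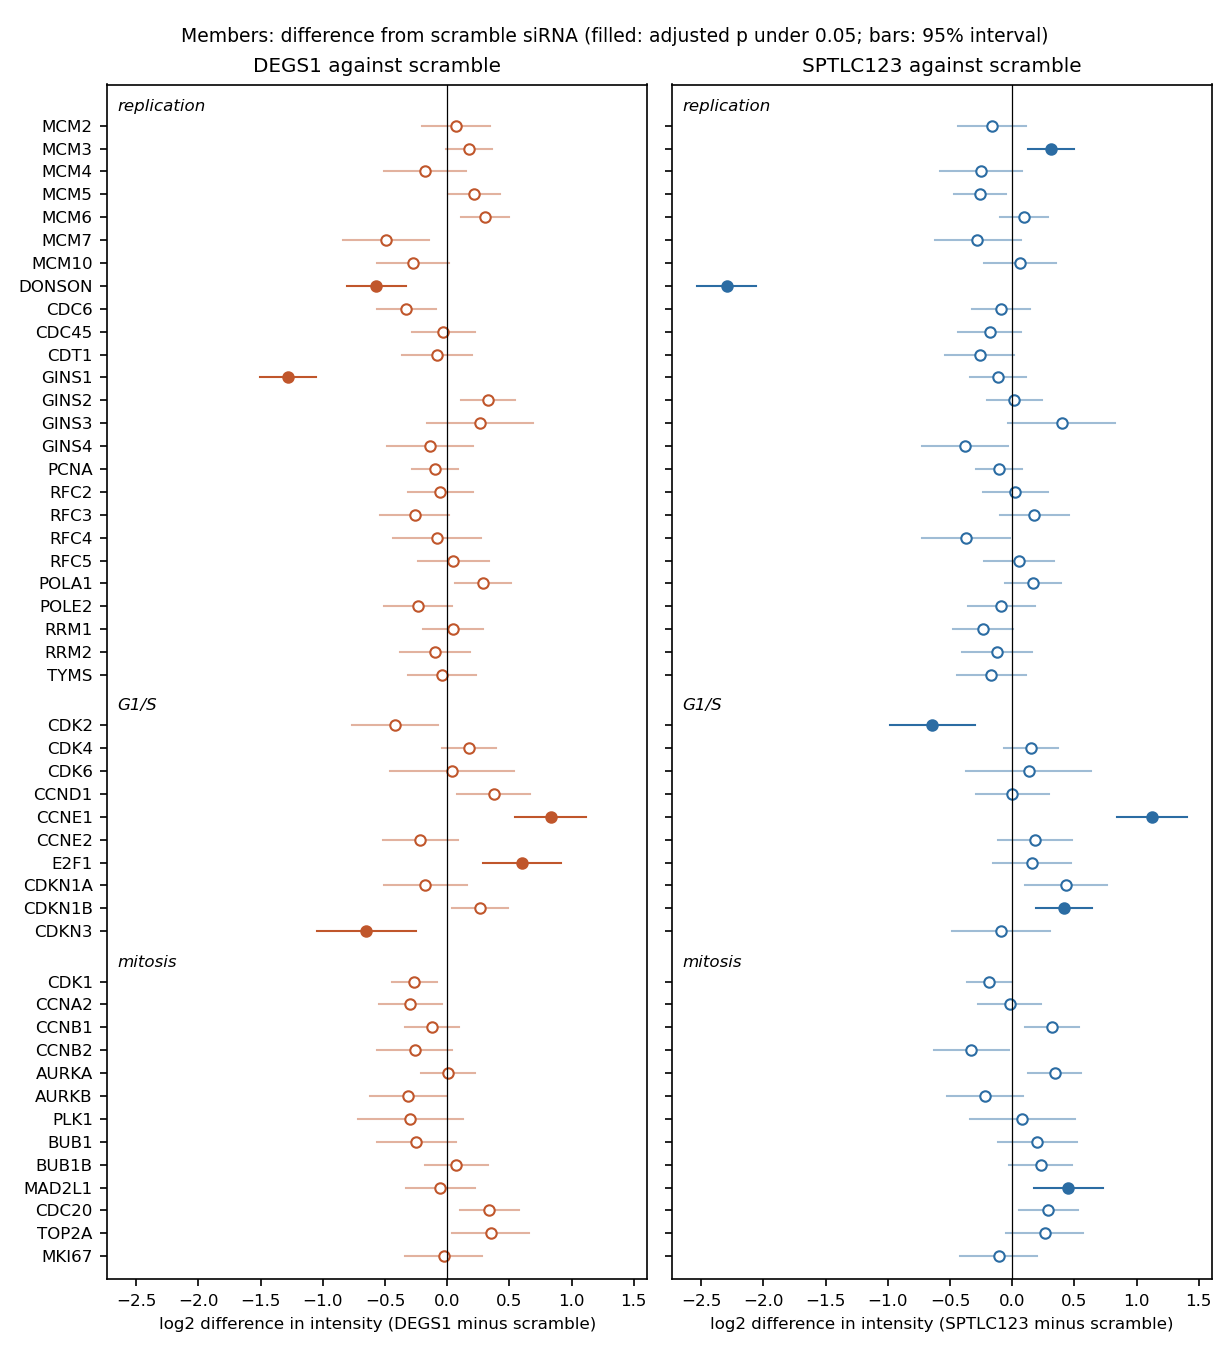
Log2 difference in intensity from scramble of the 48 members, DEGS1 cells in the left panel and SPTLC123 cells in the right, with 95% intervals of the limma fit and filled points at an adjusted p under 0.05. DONSON in SPTLC123 cells (-2.30) and GINS1 in DEGS1 cells (-1.28) lie farthest below 0, and CCNE1 lies above 0 in both panels (0.83 in DEGS1 and 1.13 in SPTLC123).

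CCNE1, the cyclin E that activates CDK2 at the entry into S phase, was the G1/S gene with the largest difference. Its log2 levels were 8.72, 8.93 and 8.99 in DEGS1 cells, 9.14, 9.11 and 9.28 in SPTLC123 cells, and 8.12, 7.78 and 8.25 in scramble cells. The 3 groups did not overlap. CCNE1 rose in SPTLC123 cells by 1.13 ± 0.13, or 2.18-fold, against scramble (limma, adjusted p = 0.000314), and in DEGS1 cells by 0.83 ± 0.13, or 1.78-fold (limma, adjusted p = 0.0028). Between DEGS1 and SPTLC123 cells it differed by -0.30 (95% interval -0.58 to -0.02, adjusted p = 0.196). Without the 3 arrays of weak 5' signal the rise in SPTLC123 cells was 1.08 (adjusted p = 0.004) and that in DEGS1 cells 0.67 (adjusted p = 0.149, 1 DEGS1 array). Its other, dim probe set, with a mean of 4.16, gave -0.12 in SPTLC123 and -0.07 in DEGS1 cells, and the mean of both probe sets 0.51 in SPTLC123 and 0.38 in DEGS1 cells. CCNE2, the second cyclin E, was not called, with differences from scramble of -0.22 in DEGS1 and 0.18 in SPTLC123 cells.

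CDK2, the kinase that cyclin E activates, had log2 levels of 9.15, 8.79 and 8.79 in DEGS1 cells, 8.78, 8.95 and 8.32 in SPTLC123 cells, and 9.25, 9.4 and 9.32 in scramble cells. All knockdown arrays lay below all scramble arrays, and SPTLC123 replicate 3, of weak 5' signal, was the lowest. CDK2 fell by 0.64 ± 0.16 in SPTLC123 cells (limma, adjusted p = 0.0248), and its difference in DEGS1 cells was -0.42 (adjusted p = 0.123). Leaving out SPTLC123 replicate 1, SPTLC123 replicate 3 or any 1 scramble array ended the call, with log2 differences of -0.69 to -0.46 and adjusted p of 0.0507 to 0.0847. Without the 3 arrays of weak 5' signal CDK2 differed by -0.46 in SPTLC123 cells, with an adjusted p of 0.0351.

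E2F1, an activator of S phase genes, had log2 levels of 8.53, 9.03 and 8.97 in DEGS1 cells, 8.37, 8.23 and 8.6 in SPTLC123 cells, and 8.33, 8.14 and 8.26 in scramble cells. The high DEGS1 arrays were replicates 2 and 3, both of weak 5' signal, and replicate 1 lay within the range of SPTLC123 cells. E2F1 rose in DEGS1 cells by 0.60 ± 0.14 against scramble (limma, adjusted p = 0.024). With the actin difference as a covariate the value was 0.36 (limma, adjusted p = 0.0788). Without the 3 arrays of weak 5' signal it was 0.29, where DEGS1 has a single array. Leaving out DEGS1 replicate 2 or 3 or scramble replicate 2 or 3 also ended the call, with adjusted p of 0.0754 to 0.109. Its second probe set gave 0.51 in DEGS1 cells and 0.17 in SPTLC123 cells.

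Of the 3 inhibitors of the cyclin-dependent kinases 1 fell in DEGS1 cells (CDKN3) and 1 rose in SPTLC123 cells (CDKN1B) against scramble. CDKN1B (p27), which binds cyclin E with CDK2, had log2 levels of 10.21, 10.09 and 10.11 in DEGS1 cells, 10.26, 10.21 and 10.4 in SPTLC123 cells, and 9.76, 10.05 and 9.82 in scramble cells. It rose in SPTLC123 cells by 0.42 ± 0.10 (limma, adjusted p = 0.0252), with no overlap with scramble, and differed by 0.26 in DEGS1 cells (adjusted p = 0.135). Without SPTLC123 replicate 1 or 3 or scramble replicate 1 or 3 the CDKN1B rise was 0.36 to 0.43 with adjusted p of 0.0663 to 0.0898. CDKN1A (p21), a target of p53, had 7.1, 7.19 and 6.91 in DEGS1 cells, 8.02, 7.61 and 7.39 in SPTLC123 cells, and 7.3, 7.33 and 7.09 in scramble cells. All SPTLC123 arrays were above all others, and the difference from scramble was 0.43 (adjusted p = 0.103). CDKN1A was lower in DEGS1 than in SPTLC123 cells (limma, log2 difference -0.61, adjusted p = 0.0304). Without DEGS1 replicate 2 or 3 or SPTLC123 replicate 1 or 2 that difference was -0.67 to -0.43, with adjusted p of 0.0624 to 0.124.

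CDKN3, a phosphatase that acts on CDK2, had log2 levels of 10.57, 10.04 and 9.87 in DEGS1 cells, 10.93, 10.83 and 10.41 in SPTLC123 cells, and 10.81, 10.88 and 10.74 in scramble cells. The 3 lowest values were those of the 3 arrays of weak 5' signal. CDKN3 fell by 0.65 ± 0.18 in DEGS1 cells (limma, adjusted p = 0.0449), and the call ended in 14 of the 21 alternative settings. The CDKN3 difference was -0.32 with the actin covariate (limma, adjusted p = 0.148) and -0.24 without the 3 arrays, where DEGS1 has a single array. Leaving out any 1 array other than DEGS1 replicate 1 and SPTLC123 replicate 3 also ended the call, with adjusted p of 0.054 to 0.184. In the chosen probe sets the cyclin D kinases and their cyclin were not called. CDK4 differed from scramble by 0.18 in DEGS1 and 0.15 in SPTLC123 cells, CDK6 by 0.04 and 0.13, and CCND1, cyclin D1, by 0.37 and 0.00 (95% intervals 0.08 to 0.66 and -0.29 to 0.29). The CCND1 value in DEGS1 cells was 0.15 with the actin covariate and 0.13 without the 3 arrays of weak 5' signal. A pair of other CDK6 probe sets was called lower in DEGS1 cells, at -0.92 and -0.86.

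**Figure D3:**
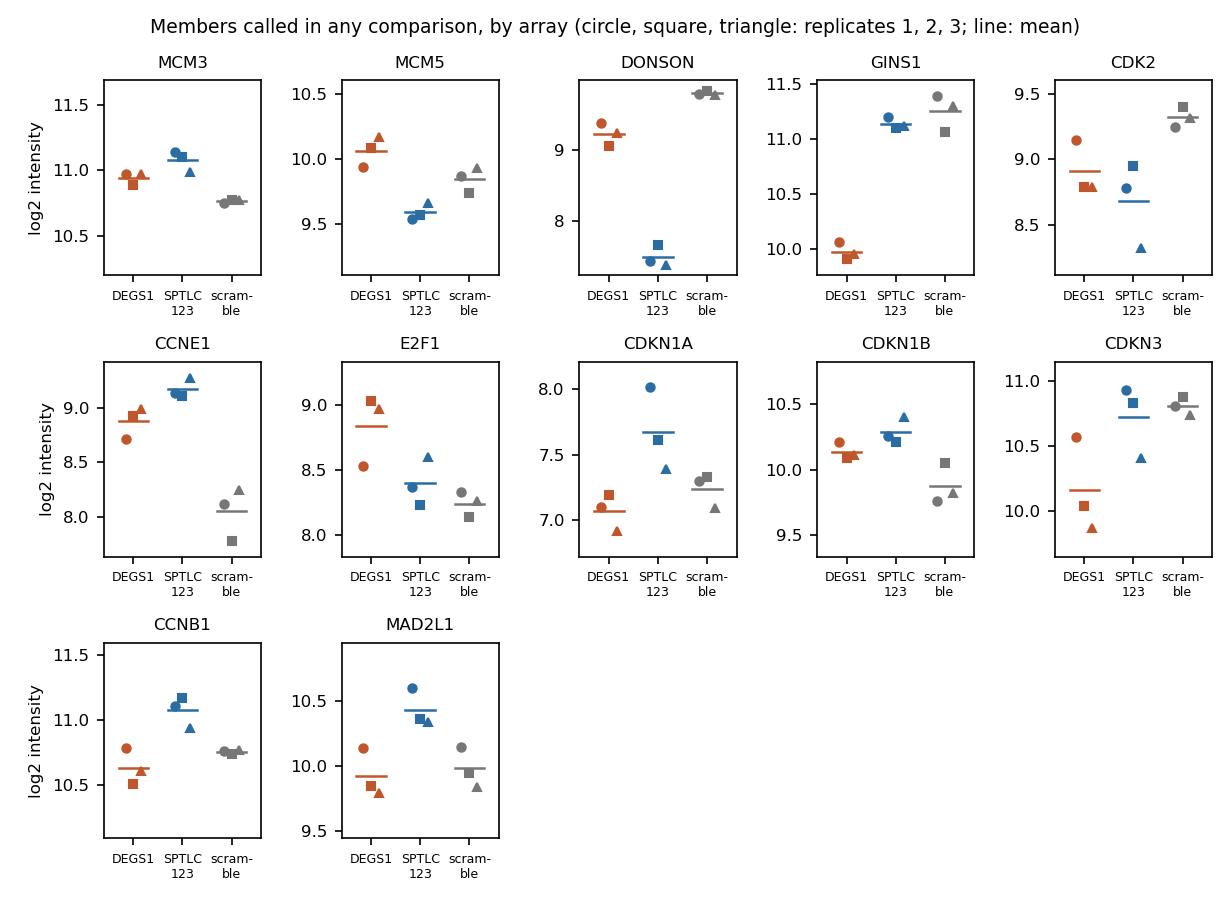
Log2 intensity of the 12 members called in at least 1 comparison on each of the 9 arrays, by group (DEGS1, SPTLC123, scramble); circles, squares and triangles are replicates 1, 2 and 3 and lines are group means. DONSON is low in all 3 SPTLC123 arrays and GINS1 in all 3 DEGS1 arrays, while CDKN3 and E2F1 set DEGS1 replicate 1 apart from replicates 2 and 3.

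The mitosis genes called were MAD2L1 and CCNB1. In DEGS1 against scramble limma called 0 of 13, against 9.7% of all genes. At an unadjusted p under 0.05 there were 5 of 13, beside 4877 of all 19775 genes. With array weights, which called 21.6% of all genes in that comparison, limma called 5 of 13 (CDK1, CCNA2, AURKB, PLK1 and CDC20). In SPTLC123 against scramble 1 of 13 was called, MAD2L1 (7.69%, against 9.94% of all genes). Between the knockdowns 2 of 13 were called (15.4%, against 8.66%), CCNB1 and MAD2L1, both lower in DEGS1 cells. MAD2L1, a protein of the spindle checkpoint that holds back anaphase, had log2 levels of 10.14, 9.85 and 9.79 in DEGS1 cells, 10.6, 10.36 and 10.34 in SPTLC123 cells, and 10.15, 9.95 and 9.84 in scramble cells. All SPTLC123 arrays were above all others, and DEGS1 and scramble overlapped. MAD2L1 rose in SPTLC123 cells by 0.45 ± 0.12 (limma, adjusted p = 0.0435), and the log2 difference of DEGS1 from SPTLC123 cells was -0.51 ± 0.12 (adjusted p = 0.0294). Without any 1 of 7 arrays (all but DEGS1 replicate 1 and scramble replicate 1) the rise was 0.37 to 0.50 with adjusted p of 0.0502 to 0.161. The difference between the knockdowns lost its call without DEGS1 replicate 2 or 3 or SPTLC123 replicate 1 or 2, at -0.54 to -0.42 and adjusted p of 0.0674 to 0.133. A dimmer probe set of MAD2L1 was called in both comparisons, at 0.63 and -0.63, and another, between these in brightness, was called in neither, at 0.07 and -1.25 (adjusted p of the second 0.299).

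CCNB1, cyclin B1, which drives mitosis with CDK1, had log2 levels of 10.78, 10.51 and 10.61 in DEGS1 cells, 11.11, 11.17 and 10.94 in SPTLC123 cells, and 10.76, 10.74 and 10.77 in scramble cells. Again all SPTLC123 arrays were above all others. CCNB1 was lower in DEGS1 than in SPTLC123 cells, at a log2 difference of -0.45 ± 0.10 (limma, adjusted p = 0.0184). Against scramble it differed by 0.32 in SPTLC123 cells (adjusted p = 0.0678) and by -0.12 in DEGS1 cells. Without DEGS1 replicate 2 or 3 or SPTLC123 replicate 1 or 2 the difference between the knockdowns was -0.43 to -0.38, with adjusted p of 0.0705 to 0.0883. Another probe set of CCNB1 gave 0.55 in SPTLC123 cells and was called there (adjusted p = 0.0178 in the fit over every probe set), and it gave -0.47 between the knockdowns (adjusted p = 0.0387).

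AURKA, an Aurora kinase of the spindle poles, was just outside the threshold. It had log2 levels of 11.42, 11.3 and 11.47 in DEGS1 cells, 11.71, 11.68 and 11.82 in SPTLC123 cells, and 11.38, 11.27 and 11.53 in scramble cells. All SPTLC123 arrays were above all others, with a log2 difference of 0.34 from scramble (adjusted p = 0.05001). The other mitosis genes passed in no comparison. Cyclins CCNA2 and CCNB2 differed from scramble by -0.30 and -0.26 in DEGS1 cells and by -0.02 and -0.33 in SPTLC123 cells. CDK1 differed by -0.26 (adjusted p = 0.0674) and -0.18, and the Polo kinase PLK1 by -0.30 and 0.08. AURKB, the Aurora kinase of the centromere, differed by -0.31 in DEGS1 and -0.22 in SPTLC123 cells.

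The checkpoint kinases BUB1 and BUB1B differed from scramble by -0.25 and 0.07 in DEGS1 cells and by 0.20 and 0.23 in SPTLC123 cells. CDC20, the activator of the anaphase-promoting complex, differed by 0.34 (adjusted p = 0.0754) in DEGS1 and 0.29 in SPTLC123 cells. The proliferation marker MKI67 had log2 levels of 9.89, 9.55 and 9.39 in DEGS1 cells, 9.49, 9.66 and 9.43 in SPTLC123 cells, and 9.81, 9.44 and 9.66 in scramble cells, and the groups overlapped. Its log2 difference from scramble was -0.03 in DEGS1 cells (95% interval -0.34 to 0.28) and -0.11 in SPTLC123 cells (95% interval -0.42 to 0.20). TOP2A, topoisomerase II alpha, differed by 0.35 in DEGS1 and 0.26 in SPTLC123 cells, with adjusted p of 0.153 and 0.3.

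Other genes of the same pathways were read from wider lists. Of 44 other replication genes, 2 rose and 3 fell in DEGS1 cells against scramble (11.4% called, against 9.7% of all genes), with a median log2 difference of -0.02. POLE4, a subunit of polymerase epsilon, was lower at -0.68 (adjusted p = 0.0141), ORC4 of the origin recognition complex at -0.53 (adjusted p = 0.0246), and CDC7, the kinase that fires origins, was higher at 0.40 (adjusted p = 0.0242). In SPTLC123 cells 3 of 44 were called (6.82%, against 9.94%). The nuclease DNA2 rose, at 0.37, and 2 fell, the fork protector TIMELESS at -0.35 and GMNN at -0.36. GMNN, geminin, blocks CDT1. Between the knockdowns 2 were higher and 2 lower in DEGS1 cells (9.09% called, against 8.66%), among them TIMELESS at 0.54, POLE3 at -0.69 and POLE4 at -0.71. The calls of TIMELESS and POLE3 between the knockdowns held without any 1 array, and the other calls named here were each lost without at least 1. Without the 3 arrays of weak 5' signal, where DEGS1 has a single array, those 2 were lost as well.

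E2F2 and E2F7 rose in both knockdowns. Of 26 other G1/S genes 2 rose and 2 fell in DEGS1 cells (15.4% called, against 9.7% of all genes). E2F2, an activator like E2F1, had 7.67 ± 0.22 in DEGS1 cells, 7.23 ± 0.18 in SPTLC123 cells and 6.66 ± 0.03 in scramble cells, which is 1.02 higher in DEGS1 than in scramble (limma, adjusted p = 0.000818) and 0.57 higher in SPTLC123 than in scramble (limma, adjusted p = 0.0145). E2F7, a repressor of the family, was higher by 0.58 in DEGS1 and by 0.70 in SPTLC123 cells (limma, adjusted p = 0.0293 and 0.0115). CCNH, the cyclin of the CDK-activating kinase, was lower in DEGS1 cells at -0.70. In SPTLC123 cells 3 rose, these 2 E2F genes and CKS2 at 0.37 (11.5% called, against 9.94%). Between the knockdowns 3 were lower in DEGS1 cells, E2F6 at -0.53, CCND3 at -0.40 and TFDP1 at -0.57 (11.5% called, against 8.66%). The calls of E2F2 and CCNH in DEGS1 cells and of E2F7 in SPTLC123 cells held without any 1 array, and the other calls named here did not. Without the 3 arrays of weak 5' signal those of CCNH and of E2F7, the last in both knockdowns, were lost, and with the mean of all probe sets those of E2F2 and E2F7 were lost in both.

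Of 41 other mitosis genes, 1 rose and 2 fell in DEGS1 cells (7.32% called, against 9.7% of all genes), with BUB3 at 0.40, PTTG1 (securin) at -0.43 and ANLN (anillin, of the cleavage furrow) at -0.33. In SPTLC123 cells 2 rose and 6 fell, and 19.5% were called against 9.94% of all genes. NEK2, a centrosome kinase, was lower at -0.78 (adjusted p = 0.000806), SPC25 of the kinetochore at -0.57, and BUB3, a checkpoint protein, higher at 0.51 (adjusted p = 0.00256). Between the knockdowns 5 were higher and 4 lower in DEGS1 cells (22% called, against 8.66% of all genes), with NEK2 at 0.88, the mitotic inhibitor kinase WEE1 at -0.69 and ANLN at -0.61. The calls of BUB3, PTTG1 and ANLN in DEGS1 cells against scramble were each lost without at least 1 array. The other calls named here held without any 1 array, but that of NEK2 between the knockdowns was lost with the mean of its probe sets and that of ANLN between the knockdowns without the 3 arrays of weak 5' signal.

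The probe sets of a member did not always give the same value. The 48 genes had 108 probe sets annotated to 1 gene, 15 members had only 1, and 60 were not the ones chosen. The chosen probe set of RFC5 read 0.06 in SPTLC123 cells against scramble, where 1 of its others read -1.08 (adjusted p = 0.00209), and -0.01 in DEGS1 against SPTLC123 cells, where that other read 1.23 (adjusted p = 0.0014). For CDK6 in DEGS1 cells against scramble the chosen probe set read 0.04, and the adjusted p of the called pair were 0.0379 and 0.0321. In that pair DEGS1 replicates 2 and 3, of weak 5' signal, were the lowest arrays. DEGS1 replicate 1, not of weak 5' signal, also lay below all SPTLC123 and scramble arrays, at 9.38 and 8.65. SPTLC123 replicate 3, of weak 5' signal, read 9.53 and 8.87. These came from a fit over every probe set, and which probe set stands for the transcript was not tested.

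The weak 5' signal moved with several calls. On the log2 scale, all 3 arrays of weak 5' signal lay below all other arrays in 8 of the 48 chosen probe sets (16.7%, against 7.74% over all genes), and in 19 of the 60 others (31.7%, against 12.8% over all genes' other probe sets). Without these arrays DEGS1 has a single array, and its differences are given as sizes only. GINS1 was then at -1.19 and GINS3 at 0.73 against scramble, and DONSON at 1.835 and GINS1 at -1.08 between the knockdowns. In SPTLC123 against scramble 6 members were called, against 7.6% of all genes. Of these 6, 3 (DONSON, CDK2 and CCNE1) were among the 6 called over all arrays. GINS3, CDKN1A and CCNB1 were called in place of MCM3, CDKN1B and MAD2L1. GINS3, not called over all arrays, had log2 levels of 7.55, 6.83 and 6.86 in DEGS1 cells, 7.35, 7.44 and 6.86 in SPTLC123 cells, and 6.83, 6.78 and 6.85 in scramble cells. The high values were those of the knockdown arrays with normal 5' signal. With the actin covariate GINS3 was higher by 0.65 in DEGS1 (limma, adjusted p = 0.00222) and by 0.56 in SPTLC123 cells (limma, adjusted p = 0.000902). Without the 3 arrays it was higher by 0.58 in SPTLC123 cells (limma, adjusted p = 0.00997). The 0.73 in DEGS1 cells then rested on a single DEGS1 array, at 7.55.

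Within the arrays of weak 5' signal, DEGS1 replicates 2 and 3 differed from SPTLC123 replicate 3 by 1.75 in DONSON, -1.19 in GINS1, 0.47 in MCM5, -0.52 in MAD2L1, -0.38 in CCNB1 and -0.34 in CDKN1A, values with no test. Over all arrays the CDKN1A difference was -0.61, and those of the others were 1.73 in DONSON, -1.17 in GINS1, 0.47 in MCM5, -0.51 in MAD2L1 and -0.45 in CCNB1. The part of the 5' signal in the calls of CDKN3 and E2F1 was not tested beyond these fits.

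**Figure D4:**
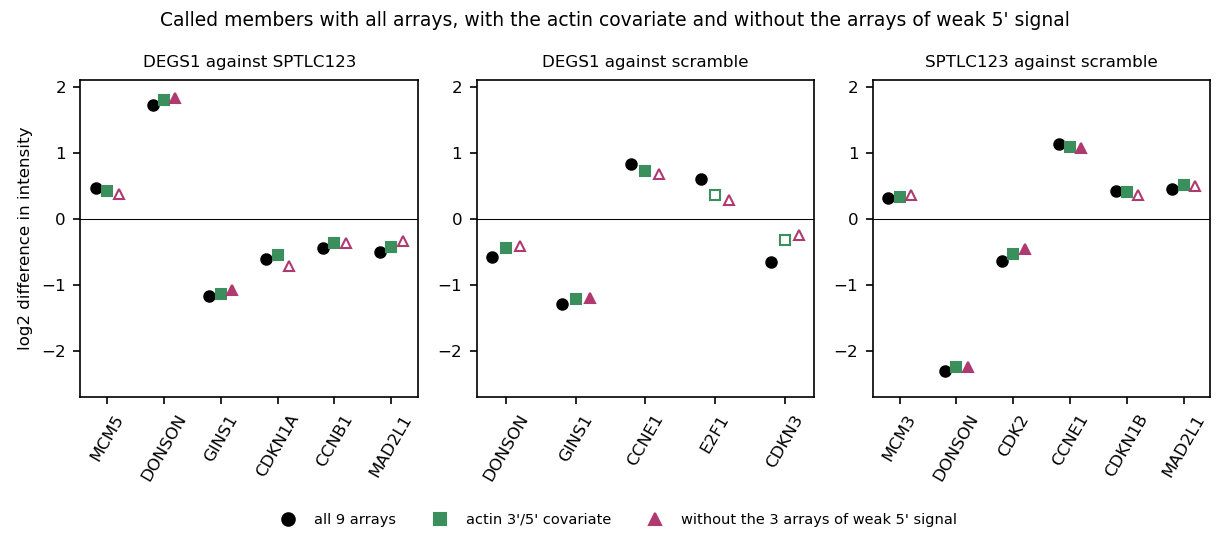
Log2 difference in intensity of the called members with all 9 arrays, with the actin 3' minus 5' difference as a covariate, and without the 3 arrays of weak 5' signal; filled points have an adjusted p under 0.05. DONSON in SPTLC123 cells and GINS1 in DEGS1 cells keep their size, while CDKN3 and E2F1 in DEGS1 cells move to -0.24 and 0.29 without these arrays.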

How the data were processed

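RNA of Huh7 cells was measured on 9 arrays, 3 per siRNA group. The authors deposited 1 linear, already normalized intensity per probe set and array. The submitters' processing notes name RMA, GCRMA 2.12.1 and limma 2.14.7 but give them no role, and whether RMA or GCRMA made the values is not given in the sources used here. Of 54675 probe sets, 62 were controls, 41091 had 1 gene symbol in the platform annotation, 1801 had several and 11721 were not listed there. Array data have no read depth, and the number of arrays limits the precision.

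Log2 was taken with no pseudocount, since the lowest value was 4.88, and each of 19775 genes was read from its brightest 1-gene probe set. The lmFit and eBayes functions of limma 3.58.1 (R 4.3.3, with statmod 1.5.0) fitted 1 mean per group to all arrays, with 6 residual degrees of freedom. Tests were two-sided with Benjamini-Hochberg adjustment over all genes, and the fit was tested on simulated data. The labels call the arrays biological replicates. Each p-value sets a difference between groups against the spread within groups, pooled over the 3 groups and moderated over all genes.

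The 48 members, the lists of other replication, G1/S, mitosis and checkpoint genes, the marker lists and the settings for weak 5' signal were chosen with earlier results of these data known. Members called in any comparison are given in full. Of the other lists up to 3 called genes per comparison are named, by adjusted p. Alternatives were other ways to combine probe sets, leaving out dim genes, centring arrays on their medians or normalizing them by quantiles, eBayes with a trend and robust, fits to the 6 arrays compared, array weights, a threshold of 0.01, a replicate block, leaving out each array, the actin covariate and leaving out the 3 arrays of weak 5' signal. Array weights estimate each array's variance from all genes. Promoters came from RefSeq (GRCh38.p14). The third subunit of serine palmitoyltransferase was not analysed here.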

Additional observations from a re-analysis of the deposited data

How the results depend on the processing

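No call of a member changed direction under the 21 alternatives. The same alternatives were run, as an addition after the data had been seen, for 35 calls of named genes outside the members. Of these 0 changed direction, 4 were called in every alternative (NEK2, BUB3 and SPC25 in SPTLC123 against scramble, and WEE1 between the knockdowns), and 22 were lost without at least 1 array. Among the members, DONSON and CCNE1 in SPTLC123 against scramble, GINS1 in DEGS1 against scramble, and DONSON and GINS1 between the knockdowns were called in every one, and the other 12 calls were lost in at least 1. The number of members called was 5 in DEGS1 against scramble, 6 in SPTLC123 against scramble and 6 in DEGS1 against SPTLC123. It was 3 and 3 in the comparisons with scramble when every 1-gene probe set was fitted and p adjusted over all of them. Each member was still counted by its chosen probe set there. At a threshold of 0.01 it was 3, 2 and 2, where 3.5%, 4.47% and 3.63% of all genes were called. With array weights it was 18 in DEGS1 against scramble and 16 between the knockdowns, where 21.6% and 20.2% of all genes were called. It was 12 of 48 between the knockdowns with the actin covariate, where 10.3% of all genes were called. Without the 3 arrays of weak 5' signal DEGS1 has a single array, and no count is given for its comparisons. Leaving out each array gave 3 to 14, 2 to 7 and 2 to 13 members called. Of all genes 4.05% to 18.3%, 5.96% to 12% and 4.25% to 14.7% were then called. The cause of these shifts was not tested.

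Quantile normalization gave 4 higher and 3 lower members in DEGS1 against scramble and 4 and 4 between the knockdowns, against 2 and 3, and 2 and 4, as deposited. Median centring gave 2 and 2 in DEGS1 against scramble. Over all genes median centring moved the split of calls to 1306 higher and 695 lower in SPTLC123 against scramble (1051 and 915 as deposited) and to 548 and 1181 between the knockdowns (732 and 981). Over the 9 pairs of same-numbered arrays the correlation of deviations ran from -0.278 to 0.541, with 3 over 0.1. Differently numbered arrays of different groups ran from -0.622 to 0.406. The value of 0.541 was between DEGS1 replicate 3 and SPTLC123 replicate 3, both of weak 5' signal. Whether same-numbered arrays belong together is therefore not settled by these values. With the replicate block 5, 7 and 9 members were called, against 11%, 10.4% and 9.11% of all genes.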

Other observations

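Checkpoint and p53 genes outside the 48 members were read from a list of 22, of which 19 were measured. In DEGS1 cells against scramble 4 of them were lower (21.1% called, against 9.7% of all genes). GADD45B, a stress-induced growth arrest gene, was at -0.83 (adjusted p = 0.00673), CCNG1, a p53 target, at -0.48 (adjusted p = 0.018), and CHEK2, a checkpoint kinase, at -0.63 (adjusted p = 0.0254). In SPTLC123 cells against scramble 1 of 19 was called (5.26%, against 9.94%), GADD45B at -0.57 (adjusted p = 0.0343). Between the knockdowns CCNG1 was lower in DEGS1 cells at -0.57 (adjusted p = 0.00728), and SFN, which holds CDK1 in the cytoplasm after DNA damage, was higher at 0.48 (adjusted p = 0.0205), so that 10.5% were called against 8.66% of all genes. The calls of GADD45B in DEGS1 cells and of CCNG1 between the knockdowns held without any 1 array but not without the 3 arrays of weak 5' signal, and the other calls were lost without at least 1 array. The comparisons with scramble share its arrays.

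The measured genes next to the 3 members with the largest differences, by their order in RefSeq, were looked at after the values were seen. SON and CRYZL1, beside DONSON, differed from scramble in SPTLC123 cells by 0.19 and 0.00, and ABHD12 and NINL, beside GINS1, differed from scramble in DEGS1 cells by 0.22 and 0.50, with none of these called. In SPTLC123 cells ABHD12 was higher than in scramble cells by 0.375 (limma, adjusted p = 0.0466), a call not run under the alternatives, and NINL differed by 0.18. URI1, beside CCNE1, was higher in SPTLC123 cells by 0.59 (limma, adjusted p = 0.013) and differed by 0.05 in DEGS1 cells, with the first call lost without SPTLC123 replicate 1 or scramble replicate 3, while C19orf12 on the other side differed by -0.02 in SPTLC123 and 0.08 in DEGS1 cells.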
